A study of Danio rerio with 4 samples.

Results

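The genes of the fibroblast growth factor (Fgf) family were described across cell types and genotypes in dissected zebrafish trunks at 3 days post-fertilisation. Members were all genes whose symbol starts with fgf followed by a digit or with fgfr, which gave 43 gene identifiers of 25432 in the files and 42 symbols, because fgfr1bl is listed under both ENSDARG00000104015 and ENSDARG00000075027. By role they were 22 secreted ligands that act near their source, 3 ligands of the endocrine group (fgf19, fgf21 and fgf23), 7 intracellular Fgf-homologous factors (fgf11a to fgf14), 7 receptor genes and 2 receptor-like genes (fgfrl1a and fgfrl1b). The remaining genes, fgfr1op and fgfr1op2, match the symbol rule only, since their proteins are named after a fusion partner of the receptor and are neither ligand nor receptor. The samples were 2 libraries of flt1 mutant embryos (allele flt1ka604) and 2 libraries of wild-type (WT) embryos, all from trunks without heads and sequenced from transcript 3′ ends. flt1 encodes a receptor that binds Vegf away from its signalling receptor, and the study used its loss as a Vegf gain of function. Nothing in the labels says how many embryos were pooled per library, so the p-values measure the spread between these libraries.

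Fgf ligands are secreted proteins that bind receptor tyrosine kinases on neighbouring cells together with heparan sulphate chains, and the activated receptor signals through Ras and MAP kinase. Among the genes this pathway commonly induces are its own inhibitors (spry, spred, dusp6 and il17rd) and Etv transcription factors. In embryos the pathway is known for outgrowth of fins, formation of muscle, patterning of the nervous system and migration of the lateral line. The intracellular factors share the fold of the ligands but are not secreted, and are known as partners of sodium channels in excitable cells.

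After filtering, 4312 and 5569 cells were retained in the flt1 mutant libraries and 3042 and 6688 in the WT libraries. They held 45024210 and 39757583 UMIs (unique molecular identifiers, each standing for 1 captured transcript) in the flt1 mutant and 35781471 and 61822943 in the WT libraries. The median depth of a cell stood at 5037.5 and 779 UMIs in the flt1 mutant and 8033 and 3760 in the WT libraries, lowest in flt1 mutant replicate 2. That library still held more UMIs than WT replicate 1, and it was not the shallowest in every cell class. Its median was 24066 in periderm-like cells, against 22494 in flt1 mutant replicate 1 and 23252.5 and 17829.5 in the WT libraries. In pronephros-like cells it was 678, against 933 in flt1 mutant replicate 1 and 1047 and 827 in the WT libraries. flt1 itself had 55 and 68 UMIs in the flt1 mutant and 34 and 105 in the WT libraries. The lesion is a small deletion early in the gene, so a 3′ tag does not check the genotype. Clustering without the member genes gave 27 clusters. Marker genes put 10615 cells into 20 classes, written as "-like", and 7 clusters stayed unnamed. Photoreceptor-like cells numbered 1 and 10 in the flt1 mutant and 47 and 43 in the WT libraries, although heads had been removed. Retinal interneuron-like cells numbered 0 and 9 in the flt1 mutant and 38 and 20 in the WT libraries. Neither class was tested, but both stayed in the whole-trunk sums and among the other named cells. Whether other classes, such as neuron-like cells, also held cells of the head was not tested. Any pair of libraries shared 2 to 10 cell barcodes. Levels below are in CPM, the UMIs of a gene for every 1000000 UMIs of the same cells in the same library. They are not scaled by transcript length and are compared between cells, not between genes.

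Of the 43 members, 42 had at least 1 UMI in retained cells, and fgf9 had 0. There were 26 members with at least 100 UMIs, namely 12 secreted ligands, 4 intracellular factors, 6 receptor genes, both receptor-like genes, fgfr1op and fgfr1op2. Receptor transcripts led the list, with 9209 UMIs of fgfr2, 8104 of fgfr3, 2463 of fgfr4, 2306 of fgfr1b and 1638 of fgfr1a. The ligand with most UMIs was fgf10a (2287), followed by fgf24 (712), fgf4 (622), fgf1b (476) and fgf8a (470). No endocrine ligand reached 100 UMIs.

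Each of the 16 classes with at least 20 cells in every library was compared with all other named cells of the same libraries, using edgeR's quasi-likelihood test on UMI sums with library as a block and Benjamini-Hochberg adjustment over all genes. Filtering left 369 pairs of a member and a class, from 30 members. Of these, 74 pairs (20.1%) were higher and 143 (38.8%) lower in the class, where 18.7% of all gene and class pairs were higher and 31.2% lower. The scaling changed this split: with library totals in place of TMM scaling, 99 pairs were higher and 117 lower, so that 45.8% of the calls were higher, against 34.1% with TMM. In the same direction under both scalings were 70 higher and 99 lower pairs, and 5 pairs were called in opposite directions. Erythroid-like and fast muscle-like cells were moved most by this choice. There TMM raised the log2 fold of the median gene by 2.57 and 2.59 over library totals, against a shift between -1.22 and 0.425 in the other classes. fgf2, fgf11b, fgf18b and fgf21 passed the filter in 1 class only, the one where they were high, so that their calls there were fixed by the filter and support nothing. Other ligands passed it in some classes only, fgf20b in 2, fgf18a in 5 and fgf6a in 7 of 16. fgf3 passed in 9, fgf16 in 10 and fgf10b in 12. Where such a gene was high, it may have passed through that class alone, so its higher calls below are a description.

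**Figure D1:**
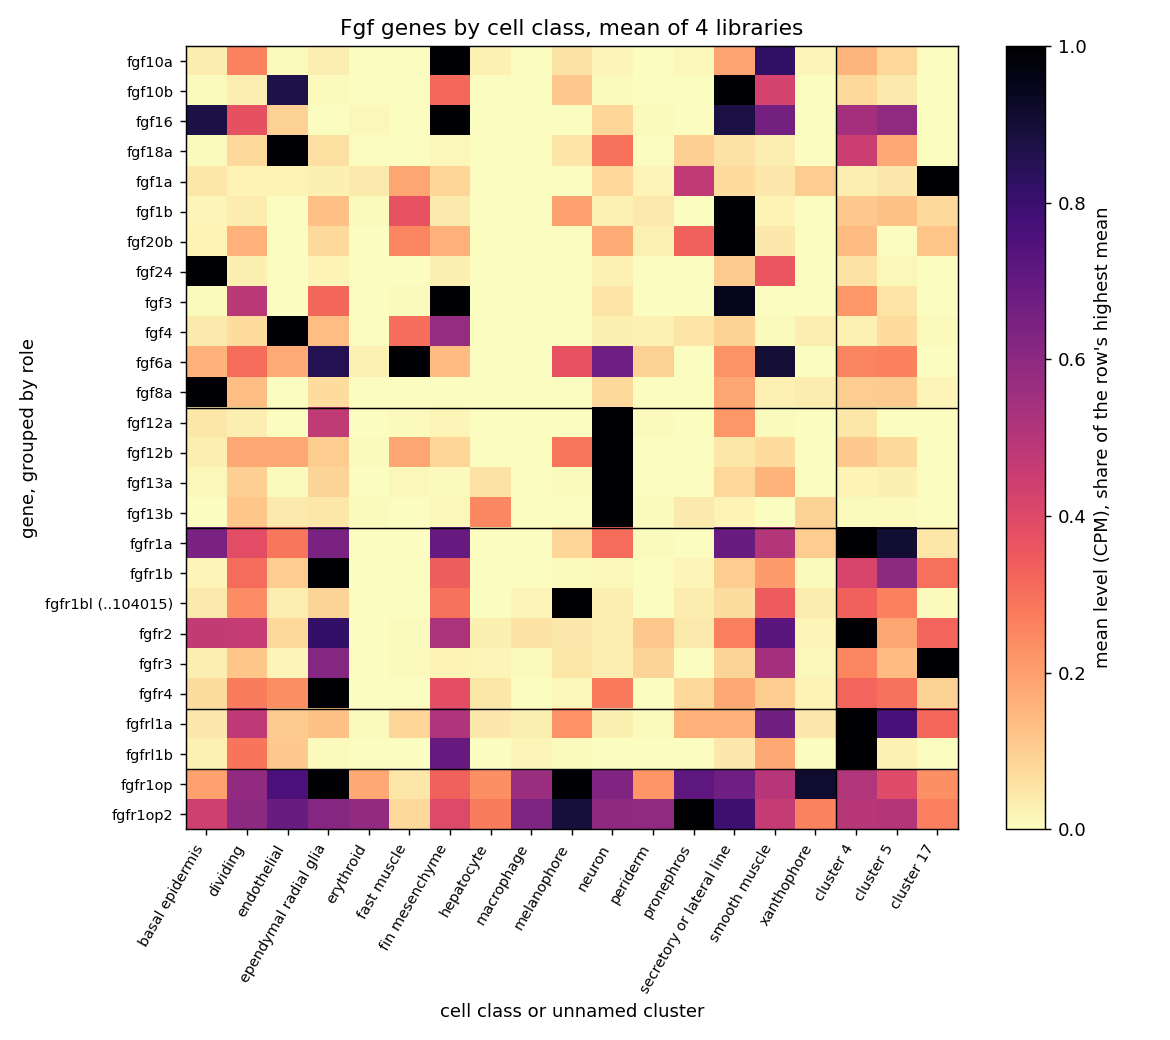
Mean level of the 26 members with at least 100 UMIs (rows, grouped by role) in 16 tested classes and 3 unnamed clusters (columns). Colour is the mean over 4 libraries in CPM as a share of the row's highest mean, so that rows are read from left to right and not against each other. The 4 intracellular factors are darkest in neuron-like cells, while the 12 secreted ligands are darkest in 6 different columns.

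The ligands fgf24 and fgf8a were found mainly in basal epidermis-like cells, the layer of the skin below the periderm. Levels of fgf24, a ligand needed for pectoral fin outgrowth, were 70.1 and 48.6 CPM in the flt1 mutant and 54.7 and 31.5 in the WT libraries of this class, against 0.779 to 2.29 in the other named cells. The log2 fold of fgf24 over other cells was 5.22 ± 0.16 (SE; edgeR adjusted p = 8.49e-11). fgf8a, a ligand of many signalling centres in the embryo, was at 21.8 and 20.7 CPM in flt1 mutant and 57.3 and 31.8 in WT basal epidermis-like cells, with a log2 fold over other cells of 5.96 ± 0.32 (edgeR adjusted p = 1.01e-08). The class and the other cells did not overlap for either gene. The share of all genes without such overlap was not counted, so this and later statements on overlap between cell sets are descriptions. The same class had higher fgf16 (log2 fold 3.27 ± 0.36), fgfr1a (2.59 ± 0.16) and fgfr2 (1.74 ± 0.11), and lower fgfr3 and fgfr1b. Of 632 cells, 21.8% had a UMI of fgf24 and 14.4% one of fgf8a. Among 1633 erythroid-like cells, which should lack both, 1 had a UMI of fgf24 and none of fgf8a, at median depths of 14999.5 UMIs in basal epidermis-like and 16827 in erythroid-like cells.

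Transcripts of fgf10a, a ligand that mesenchyme sends to epithelium in many organs, were highest in fin mesenchyme-like and smooth muscle-like cells. In fin mesenchyme-like cells fgf10a was at 162.9 and 177.9 CPM in the flt1 mutant and 110.4 and 144.6 in the WT libraries, against 6.36 to 11.9 in other named cells (log2 fold 3.28 ± 0.15). In smooth muscle-like cells it was at 145.8 and 110.1 in the flt1 mutant and 119.5 and 117.1 in the WT libraries (log2 fold 3.32 ± 0.12). The ranges of both classes overlapped. Smooth muscle-like cells also had fgf24 at 23.0 and 12.8 in the flt1 mutant and 27.8 and 9.98 in the WT libraries (log2 fold 1.40 ± 0.21). They had higher fgf10b (2.65 ± 0.34) and fgf16 (1.61 ± 0.36) too. fgf13a was called higher in them (0.81 ± 0.24), but not without WT replicate 1 (0.74) or WT replicate 2 (0.55).

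Fin mesenchyme-like cells and smooth muscle-like cells had the most members called higher, 13 of 24 tested members in each under both scalings. Of all genes tested, 17.0% were higher in fin mesenchyme-like and 27.7% in smooth muscle-like cells. Among the 13 were fgf2 in fin mesenchyme-like and fgf21 in smooth muscle-like cells, which passed the filter there alone. Also among the 13 were fgf10b and fgf16 in both classes and fgf3 in fin mesenchyme-like cells, which passed it in some classes only. In fin mesenchyme-like cells the ligand fgf3 was at 15.9 and 12.1 CPM in the flt1 mutant and 12.9 and 11.6 in the WT libraries (log2 fold 3.65 ± 0.42), and fgf4 at 25.2 and 12.1 in the flt1 mutant and 21.5 and 19.1 in the WT libraries (log2 fold 1.87 ± 0.29). All 4 libraries lay above the other named cells for both genes. fgf2, the ligand known as basic Fgf, had only 12 UMIs here, each in another cell. fgf10b (2.23 ± 0.55) and fgf16 (2.12 ± 0.59) each rested on 1 library: without WT replicate 2 the value for fgf10b was 1.32, and without flt1 mutant replicate 1 that for fgf16 was 1.51, and neither was then called. fgf3, fgf4 and fgf19 follow each other on chromosome 7 of the assembly GRCz12tu. Their highest mean levels were in fin mesenchyme-like, endothelial-like and xanthophore-like cells in that order, the last from a gene with 14 UMIs in all.

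In endothelial-like cells 3 of 23 tested members were higher than in other named cells, a share near the 10.7% of all genes that were higher in this class. All of them were ligands. fgf18a was at 10.5 and 26.3 CPM in the flt1 mutant and 30.2 and 19.1 in the WT libraries, against 0.269 to 0.575 in other named cells (log2 fold 4.70 ± 0.57, from 25 UMIs in 18 of 158 cells). It passed the filter in only 5 of 16 classes, so this call may be fixed by the filter and is not read as support. fgf10b was at 10.5 and 31.6 in the flt1 mutant and 15.1 and 4.25 in the WT libraries (log2 fold 2.89 ± 0.60, and 2.29 and not called without flt1 mutant replicate 2). The third, fgf4 (log2 fold 2.17 ± 0.39), was high in the flt1 mutant libraries only and was 1.21 and not called without flt1 mutant replicate 2. Of the receptors, fgfr2 (log2 fold -2.09 ± 0.30) and fgfr3 (-3.28 ± 0.39) were lower than in other cells. fgfr4, at 15.7 and 34.2 in the flt1 mutant and 45.3 and 29.8 in the WT libraries, was not called with TMM scaling (log2 fold 0.58, edgeR adjusted p = 0.167) and was called higher with library totals (1.65). The receptor fgfr1a had 8 UMIs in 6 of the 158 cells.

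**Figure D2:**
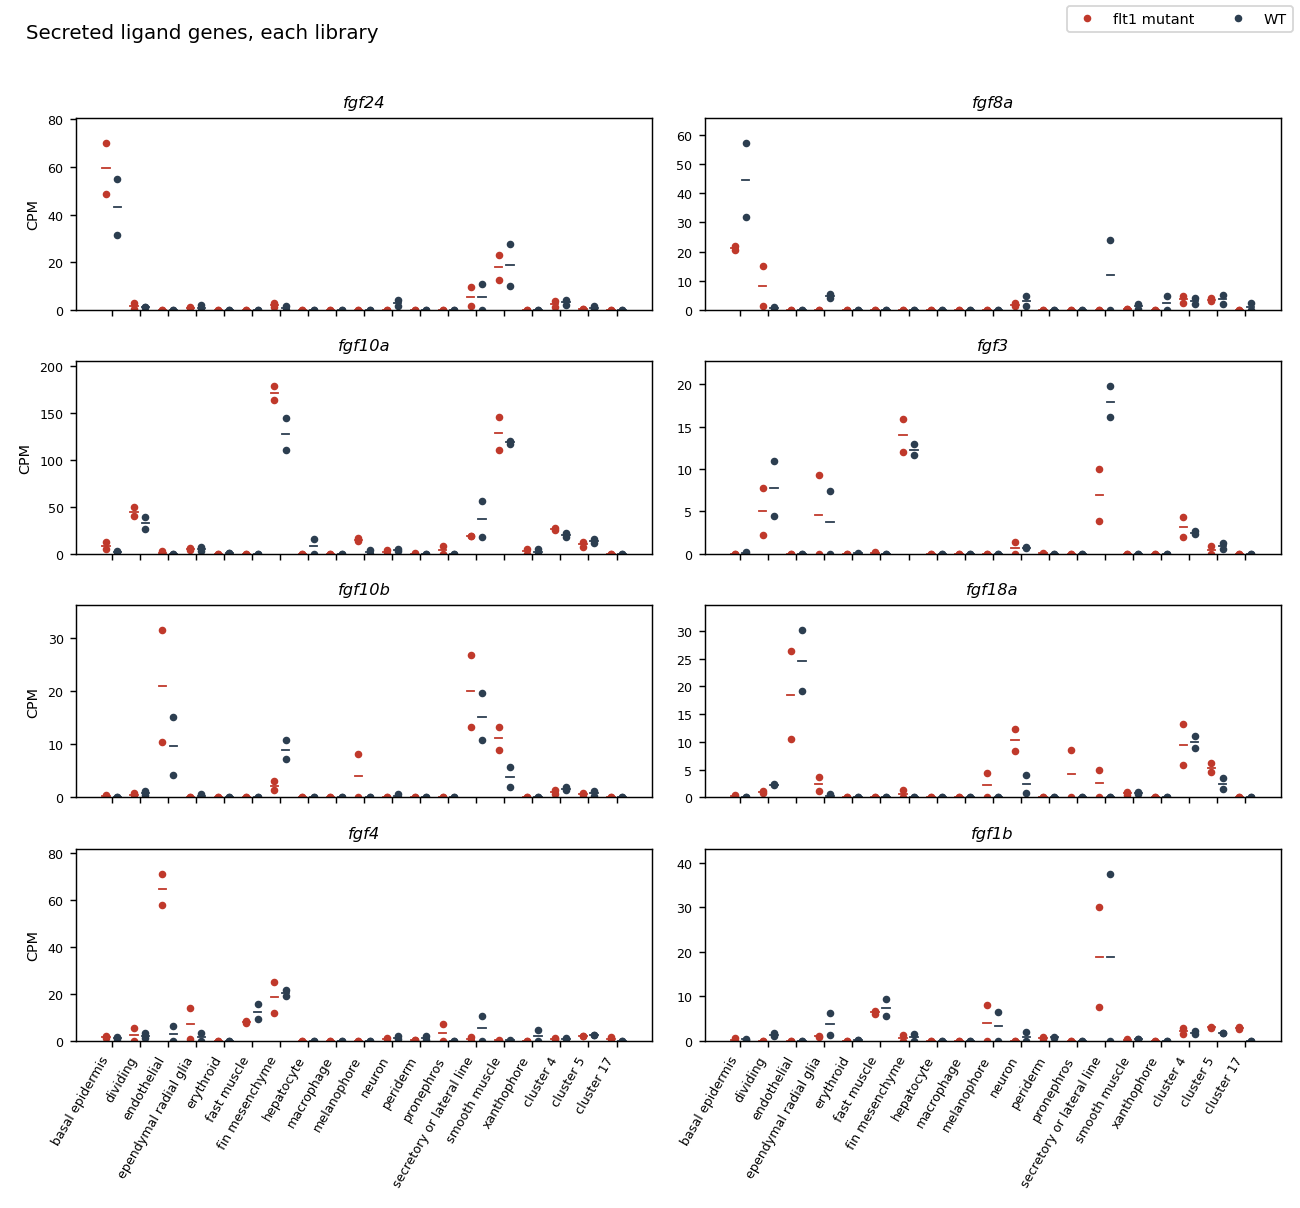
Levels of 8 secreted ligand genes in CPM (vertical axes, each starting at 0) in 16 classes and 3 unnamed clusters. Points are libraries and bars the mean of 2, flt1 mutant in red left of WT in dark blue. fgf24 and fgf8a stand highest in basal epidermis-like cells and fgf10a in fin mesenchyme-like and smooth muscle-like cells, while fgf4 in endothelial-like cells is high in the flt1 mutant libraries only.

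In fast muscle-like cells 7 of 26 tested members were higher, and 6 under both scalings, a share near the 24.6% of all genes. These cells, which had a median of 91823.5 UMIs, were higher in 5 secreted ligands under both scalings. Among these ligands, fgf6a and fgf20b passed the filter in only 7 and 2 of 16 classes. fgf1b was at 6.01 and 6.84 CPM in the flt1 mutant and 5.67 and 9.35 in the WT libraries, against 0.428 to 1.39 in other named cells. Its log2 fold was 5.53 ± 0.30 with TMM scaling and 2.93 with library totals. The corresponding log2 folds with TMM and library totals were 5.05 and 2.48 for fgf4, 4.88 and 2.28 for fgf1a, 4.86 and 2.24 for fgf6a, a ligand of muscle, and 4.63 and 2.01 for fgf20b. The intracellular factor fgf12b was higher as well (3.89 and 1.32). UMIs of fgf4 were found in 200 of 402 cells and those of fgf1b in 169, whereas 2 of 1633 erythroid-like cells had a UMI of fgf4. The median depth was 91823.5 UMIs in fast muscle-like and 16827 in erythroid-like cells, so these shares were not taken at equal depth. By mean level, fgf4 was highest in endothelial-like and then fin mesenchyme-like cells. In contrast, fgfr1a had 1 UMI in this class and fgfr2 had 48, and all of fgfr1a, fgfr1b, fgfr2, fgfr3 and fgfr4 were lower than in other cells under both scalings. Of the 26 tested members 12 were lower here, a share near the 47.5% of all genes.

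In secretory or lateral line-like cells, a class that the markers did not divide further, fgf10b and fgf3 were higher. fgf10b was at 13.4 and 26.8 CPM in the flt1 mutant and 10.7 and 19.8 in the WT libraries (log2 fold 3.58 ± 0.41). fgf3, whose product acts in lateral line migration, was at 10.0 and 3.83 in the flt1 mutant and 16.1 and 19.8 in the WT libraries (log2 fold 2.99 ± 0.53), from 26 UMIs in 12 of 213 cells. The receptor fgfr1a was higher too, at 21.7 and 17.2 in the flt1 mutant and 34.9 and 36.2 in the WT libraries (log2 fold 1.33 ± 0.28). It was not called when libraries were clustered without integration (0.66) or when unnamed cells joined the other cells (0.76). The mean of fgf1b was also highest here, but came from 36 UMIs in 4 cells, with up to 16 UMIs in 1 cell, and was not called (log2 fold 1.94, edgeR adjusted p = 0.106).

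Among receptor genes, fgfr4 and fgfr1b were highest in ependymal radial glia-like cells, the cells that line the canal of the spinal cord and include neural progenitors. fgfr4 was at 149.2 and 150.2 CPM in the flt1 mutant and 112.1 and 118.7 in the WT libraries, against 4.57 to 8.37 in other named cells (log2 fold 3.18 ± 0.19). fgfr1b was at 111.4 and 106.3 in the flt1 mutant and 113.1 and 101.2 in the WT libraries (log2 fold 3.44 ± 0.17). Neither gene overlapped with the other cells. fgfr3 (log2 fold 1.95 ± 0.16) and fgfr2 (1.29 ± 0.12) were higher in this class as well, so that it was the only tested class in which all of fgfr1a, fgfr1b, fgfr2, fgfr3 and fgfr4 were called higher under both scalings. The value for fgfr1a was 1.07 ± 0.24, and 0.51 and not called when unnamed cells joined the other cells. The class may be mixed: its leading genes included cldnk, a marker listed for myelinating glia, and its first 50 genes included 2 floor plate markers. In the narrower subset of these glia described below, fgfr1a was not called higher than in other neural cells. No secreted ligand was called higher in this class. Of 24 tested members 7 were higher here, where 24.2% of all genes were higher.

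Smooth muscle-like cells held the most fgfr3 of the named classes beside the glia. Its level was 189.0 and 197.0 CPM in the flt1 mutant and 243.5 and 301.0 in the WT libraries, against 23.9 to 26.7 in other named cells (log2 fold 2.28 ± 0.13). fgfr2 was at 211.6 and 158.5 in the flt1 mutant and 162.5 and 187.0 in the WT libraries (1.53 ± 0.09). The receptor-like gene fgfrl1a, whose protein binds ligand but has no kinase domain, had a log2 fold of 2.28 ± 0.11. Values for fgfr1b (0.88 ± 0.14) and fgfrl1b (1.44 ± 0.17) depended on how cells were clustered, being 0.08 and 0.28 without integration and then not called.

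The other receptor-like gene, fgfrl1b, was highest among the named classes in fin mesenchyme-like cells, at 135.1 and 51.3 CPM in the flt1 mutant and 83.2 and 71.5 in the WT libraries (log2 fold 3.87 ± 0.19). The flt1 mutant libraries spanned both WT values. Receptors fgfr1a (1.77 ± 0.24), fgfr1b (1.81 ± 0.20) and fgfr4 (1.83 ± 0.18) were higher in this class, as was fgfr2, at 115.2 and 135.7 in the flt1 mutant and 116.2 and 154.6 in the WT libraries, whereas fgfr3 was lower. fgfr1bl (ENSDARG00000104015) had its highest mean in melanophore-like cells, from 24 UMIs in 15 of 259 cells. It was at 24.5 and 40.1 in the flt1 mutant and 77.0 and 17.6 in the WT libraries (log2 fold 3.33 ± 0.50), and because another identifier carries the same symbol, reads may be split between copies.

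**Figure D3:**
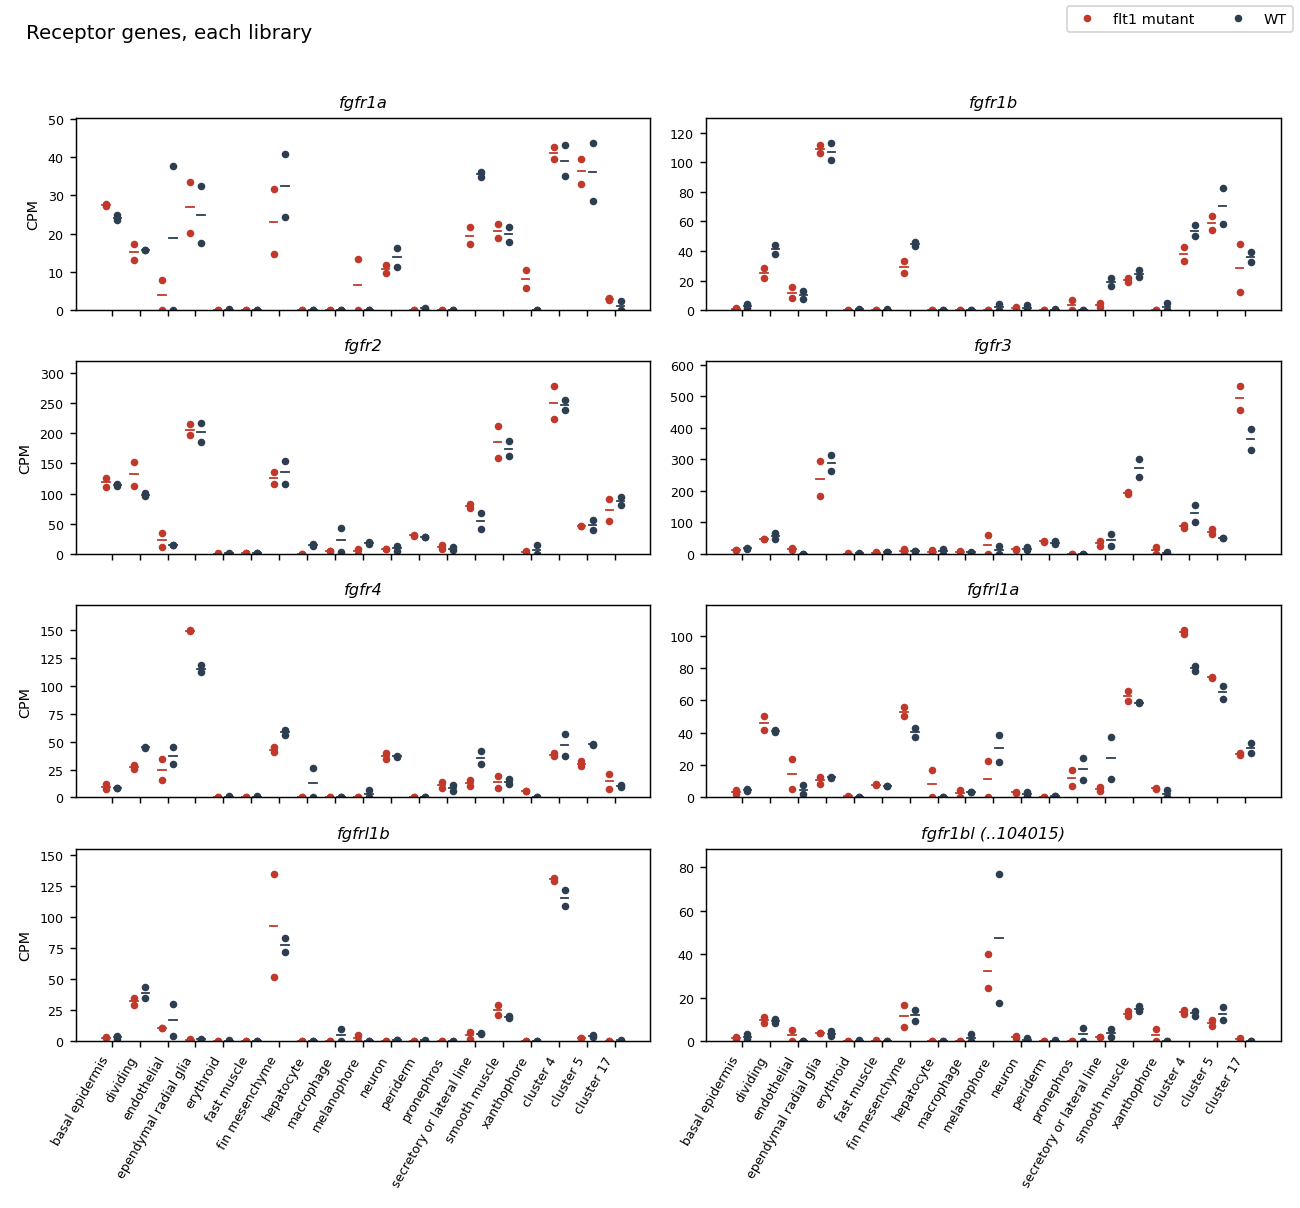
Levels of 6 receptor and 2 receptor-like genes in CPM (vertical axes, each starting at 0) in 16 classes and 3 unnamed clusters. Points are libraries and bars the mean of 2, flt1 mutant in red left of WT in dark blue. fgfr1b and fgfr4 stand highest in ependymal radial glia-like cells, fgfr3 in cluster 17, and fgfr2, fgfrl1a and fgfrl1b in cluster 4.

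Receptors were low in several classes. All of fgfr1a, fgfr1b, fgfr2, fgfr3 and fgfr4 were lower in erythroid-like, fast muscle-like and macrophage-like cells under both scalings. Lower calls were common in these classes. With TMM scaling, 46% of all genes were lower in erythroid-like, 47.5% in fast muscle-like, 31.6% in macrophage-like and 44.3% in periderm-like cells. In macrophage-like cells fgfr1a, fgfr1b and fgfr4 had 0 UMIs in 102 cells, which allows a level of up to 2.91 CPM for each (3 counts over the class). In periderm-like cells, the outer skin, fgfr1a (10 UMIs), fgfr1b (10 UMIs) and fgfr4 (14 UMIs) were lower in 1816 cells. The call of higher fgfr3 there (0.49 ± 0.12) was not made with library totals (0.07). fgfr1op2 was higher in erythroid-like cells (3.04 with TMM, 0.46 with library totals), whereas fgfr1op was 1.89 with TMM and -0.69 with library totals, called in opposite directions.

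Dividing cells, a class defined by cell cycle genes that can hold several cell types, had 9 of 25 tested members higher, where 27.8% of all genes were higher. Among the 9 were fgfrl1b (2.25 ± 0.17), fgfrl1a (1.49 ± 0.13), fgfr1b (1.46 ± 0.17) and fgfr4 (1.08 ± 0.17). fgf3 was called higher as well (2.32 ± 0.37), but 20 of its 52 UMIs came from 1 cell. The value for fgfr1a (0.58 ± 0.18) was called with all 4 libraries and not without flt1 mutant replicate 1 (0.49), without WT replicate 1 (0.57) or without WT replicate 2 (0.59). Without integration the log2 fold of fgfr1a was negative, as given in the last section.

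Neuron-like cells stood out by the intracellular factors. fgf13a was at 87.8 and 72.1 CPM in the flt1 mutant and 82.0 and 66.2 in the WT libraries, against 1.54 to 2.73 in other named cells (log2 fold 4.12 ± 0.17, edgeR adjusted p = 7.31e-09). fgf13b was at 49.4 and 47.3 in the flt1 mutant and 52.4 and 29.1 in the WT libraries (4.84 ± 0.21). fgf12a was at 28.8 and 23.7 in the flt1 mutant and 17.5 and 15.5 in the WT libraries (3.87 ± 0.29), with a smaller excess in ependymal radial glia-like cells (2.19 ± 0.38). Neuron-like cells and the other named cells did not overlap for these 3 genes. fgf12b (2.61 ± 0.29) was higher as well. fgf11b had 34 UMIs in 23 of 1268 neuron-like cells, the one class where it passed the filter. Of fgf13a, 18.3% of neuron-like cells had a UMI at a median of 3312 UMIs per cell, against 0.429% of erythroid-like cells at 16827. Thinned to 1000 UMIs per cell, the shares were 7.39% and 0.0242%.

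Of the other members in neuron-like cells, the receptor fgfr4 was higher (0.78 ± 0.15), while fgfr2 (-3.46), fgfr3 (-2.54) and fgfr1b (-3.49) were lower under both scalings. Compared with other neural cells only, fgfr4 was lower in the named neuron subsets, as given below. With member genes kept in clustering, the log2 folds of fgfr3 and fgfr1b were positive instead, as given in the last section. fgfr1b had 7 UMIs in 1268 cells. The ligand fgf18a (2.49 ± 0.52) was called higher from 23 UMIs, a call lost without integration (1.06). fgf18b had 13 UMIs in these cells.

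Neural cells were clustered again, and 6 named subsets were set against all remaining neural cells, in 63 pairs of a subset and 1 of 12 members. Of these, 21 pairs (33.3%) were higher and 24 (38.1%) lower, where 17.0% of all gene and subset pairs were higher and 23.0% lower. fgfr1b, fgfr2 and fgfr3 were higher in ependymal radial glia-like and floor plate or p3-like cells, and fgf13a and fgf13b in the 3 neuron subsets. In floor plate or p3-like cells, which lie at the ventral midline of the spinal cord, fgfr3 was at 804.1 and 478.3 CPM in the flt1 mutant and 918.0 and 795.7 in the WT libraries, against 76.4 to 98.4 in other neural cells (log2 fold 3.01 ± 0.16, edgeR adjusted p = 7.46e-14). fgfr2 was at 442.5 and 663.7 in the flt1 mutant and 545.9 and 547.2 in the WT libraries (2.89 ± 0.17). Of 88 cells, 63 had a UMI of fgfr3 and 78 one of fgfr2. The ligand fgf10a had 18 UMIs in 10 of these cells and passed the filter in no other subset, so that its call was fixed by the filter. fgfr1a (1.00 ± 0.40) was not called without flt1 mutant replicate 1 (1.00), flt1 mutant replicate 2 (0.85) or WT replicate 2 (1.12).

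In the subset of ependymal radial glia-like cells, fgfr2 (log2 fold 1.52 ± 0.20), fgfr1b (1.51 ± 0.21) and fgfr3 (1.18 ± 0.18) were higher than in other neural cells. fgfr1a was not called there (0.20 ± 0.40, edgeR adjusted p = 0.718). fgfr4 was at 162.1 and 165.1 CPM in the flt1 mutant and 79.1 and 73.6 in the WT libraries of this subset (0.57 ± 0.21), a call lost without flt1 mutant replicate 1 (0.45) or flt1 mutant replicate 2 (0.41). The genotypes did not overlap for fgfr4 here. In the whole class of ependymal radial glia-like cells they did not overlap either, with a log2 fold of flt1 mutant over WT of 0.35 ± 0.15 that was not called (edgeR adjusted p = 0.628).

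In motor neuron-like cells the receptor fgfr1a was higher than in other neural cells. It was at 48.5 and 57.6 CPM in the flt1 mutant and 78.6 and 75.5 in the WT libraries (log2 fold 2.00 ± 0.34), and was lower in glutamatergic neuron-like cells (-2.86 ± 0.50). In GABAergic or glycinergic neuron-like cells fgfr1a had 0 UMIs, which allows up to 4.42 CPM. fgfr4 was lower than in other neural cells in motor (-2.25 ± 0.45), glutamatergic (-1.56 ± 0.25) and GABAergic or glycinergic neuron-like cells (-1.35 ± 0.30). In oligodendrocyte lineage-like cells, the myelinating glia, fgfr1a was at 28.4 and 33.5 in the flt1 mutant and 91.0 and 42.0 in the WT libraries (1.67 ± 0.42). That call rested on WT replicate 1, without which the value was 1.07 and not called. fgfr2 (-1.92 ± 0.35), fgfr3 (-3.34 ± 0.41) and fgfr4 (-1.92 ± 0.58) were lower in oligodendrocyte lineage-like cells. fgfr1b (0.95 ± 0.27) was called higher in them and not without flt1 mutant replicate 2 (0.74) or WT replicate 1 (0.79). No UMI of fgfr1b was found in 407 glutamatergic, 209 motor and 161 GABAergic or glycinergic neuron-like cells. This allows levels of up to 2.02, 4.71 and 4.42 CPM (3 counts over the subset), against 51.0 to 76.5 in the other neural cells.

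The intracellular factors also varied between neurons. fgf12a was at 83.9 and 43.7 CPM in the flt1 mutant and 72.2 and 25.0 in the WT libraries of GABAergic or glycinergic neuron-like cells (log2 fold 2.00 ± 0.36). fgf13b was called higher in glutamatergic neuron-like cells, at 94.5 and 47.1 in the flt1 mutant and 68.5 and 47.4 in the WT libraries (1.91 ± 0.30). It was called higher in GABAergic or glycinergic (1.16 ± 0.37) and motor neuron-like cells (1.14 ± 0.35) as well. fgf13a was higher in all 3 neuron subsets, with values of 1.81 ± 0.25 in motor, 1.32 ± 0.21 in glutamatergic and 1.05 ± 0.27 in GABAergic or glycinergic neuron-like cells. fgf12b was called higher in motor (1.48 ± 0.50) and glutamatergic (1.28 ± 0.43) and not in GABAergic or glycinergic neuron-like cells (1.03). It did not pass the filter in ependymal radial glia-like or floor plate or p3-like cells, so its higher calls are a description. The neuron subsets were each compared with all other neural cells and not with each other. In oligodendrocyte lineage-like cells fgf13a had 2 UMIs, fgf13b 1 and fgf12a 0.

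**Figure D4:**
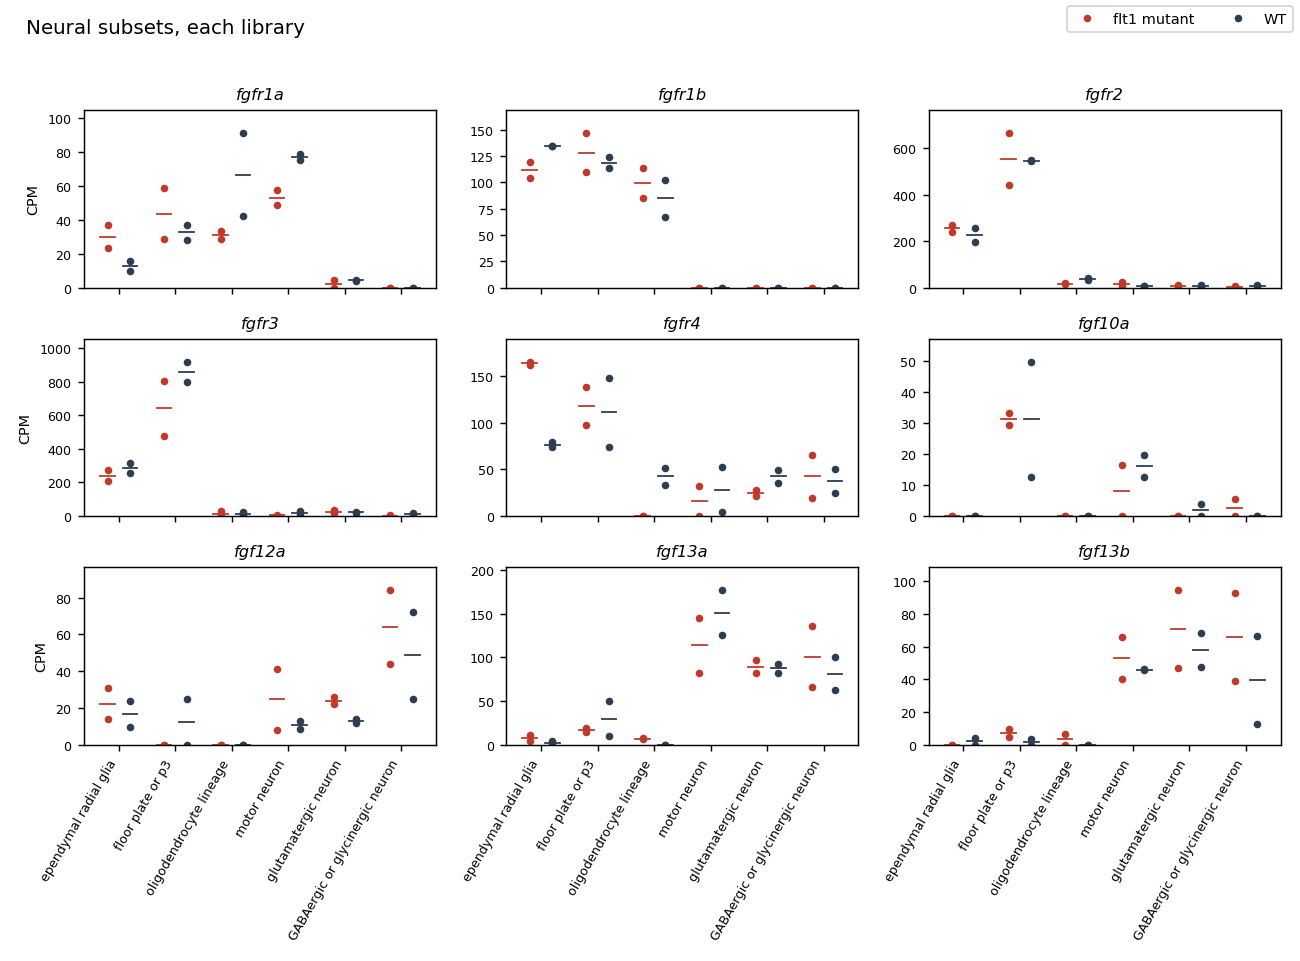
Levels of 9 members in CPM (vertical axes, each starting at 0) in 6 neural subsets. Points are libraries and bars the mean of 2, flt1 mutant in red left of WT in dark blue. fgfr2 and fgfr3 stand highest in floor plate or p3-like cells, fgfr1b is at 0 in the 3 neuron subsets, and fgf13a and fgf13b are highest in those subsets.

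Of the 7 unnamed clusters, 3 with at least 20 cells in every library and adequate depth were compared with the named cells. The largest, with 6213 cells and genes such as cldn15la, krt92 and tnnc1b in the lead, was left out because its median depth was 0.228 of that of its libraries. Of 73 pairs of a member and a cluster, 26 (35.6%) were higher and 27 (37.0%) lower, where 22.0% of all gene and cluster pairs were higher and 33.4% lower. Cluster 4 had 1143 cells and was led by fgfbp2b, a gene of an Fgf-binding protein, followed by matrix genes such as col9a1a and matn4. The log2 fold of fgfbp2b over named cells was 6.33 ± 0.15, a description because this gene could enter the clustering. Outside the neural subsets, the highest mean of fgfr2 was in cluster 4, at 278.1 and 223.5 CPM in the flt1 mutant and 255.2 and 239.4 in the WT libraries (log2 fold over named cells 1.87 ± 0.10). fgfrl1b was at 131.4 and 129.5 in the flt1 mutant and 109.3 and 121.6 in the WT libraries (3.78 ± 0.13), and fgfrl1a at 101.3 and 103.5 in the flt1 mutant and 81.5 and 78.1 in the WT libraries (2.50 ± 0.11). These 3 receptor and receptor-like genes did not overlap with the named cells. The ligand fgf18a (3.37 ± 0.33) was higher as well. fgf8b had 25 UMIs in this cluster, the one tested set where it passed the filter.

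Cluster 17, with 193 cells and the matrix genes col9a1b, matn3a and epyc in the lead, had the highest fgfr3 of any tested set outside the neural subsets. Among its first 50 genes were 4 notochord markers and 3 chondrocyte or sclerotome markers, and it stayed unnamed. The level of fgfr3 is given next. fgfr3 was at 531.4 and 456.0 CPM in the flt1 mutant and 396.6 and 330.0 in the WT libraries, against 33.9 to 41.0 in named cells (log2 fold 3.46 ± 0.17). In mammals FGFR3 is known for restraining the growth of cartilage, but the markers did not settle whether this cluster is cartilage. The ligand fgf1a was higher in the same cluster, at 28.9 and 31.5 in the flt1 mutant and 29.8 and 7.25 in the WT libraries (3.55 ± 0.41). Cluster 5 had 891 cells led by fgl1, vwde and en1a, with higher fgfr1b (2.46 ± 0.11), fgfrl1a (2.19 ± 0.10) and fgfr1a (1.97 ± 0.13), and with 36 of the 97 UMIs of the ligand fgf18b.

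The members below 100 UMIs were rare in these cells. Besides fgf18b they were fgf17 (58 UMIs), fgf21 (45), fgf8b (41), fgf2 (41), fgf11b (40), fgf11a (34), fgfr1bl (ENSDARG00000075027) (30), fgf7 (20), fgf5 (19), fgf19 (14), fgf22 (9), fgf6b (8), fgf23 (8), fgf14 (7) and fgf20a (6). Their highest mean levels were in secretory or lateral line-like cells for fgf17 and fgf23, in smooth muscle-like for fgf21, in cluster 4 for fgf8b, in fin mesenchyme-like for fgf2 and fgf7, in neuron-like for fgf11b and fgf14, and in ependymal radial glia-like for fgf11a. They were in basal epidermis-like cells for fgfr1bl (ENSDARG00000075027) and fgf20a, in cluster 5 for fgf5, fgf18b and fgf22, in xanthophore-like for fgf19 and in fast muscle-like for fgf6b. Of the endocrine ligands, fgf21, known in mammals as a metabolic hormone of the liver, had 28 UMIs in 28 periderm-like cells and 12 UMIs in 6 smooth muscle-like cells. It passed the filter in smooth muscle-like cells alone, so its call there (1.81 ± 0.57) is not read. Of 8 UMIs of fgf23, in mammals a regulator of phosphate, 7 lay in 2 secretory or lateral line-like cells.

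Other genes of the pathway were read from 4 lists. They could enter the clustering, unlike the members, so their values by class are a description. Of the feedback inhibitors and targets, 13 genes gave 208 class pairs, with 65 (31.2%) higher and 74 (35.6%) lower, where 18.7% of all pairs were higher and 31.2% lower. Among the named classes, fin mesenchyme-like and dividing cells had 11 of the 13 higher under both scalings, smooth muscle-like cells 10, ependymal radial glia-like and endothelial-like cells 8 each, and erythroid-like cells 0. Of all genes tested, 17.0% were higher in fin mesenchyme-like, 27.8% in dividing, 27.7% in smooth muscle-like, 24.2% in ependymal radial glia-like, 10.7% in endothelial-like and 28.5% in erythroid-like cells. In the unnamed clusters, tested with TMM scaling only, 27 of 39 pairs of this list (69.2%) were higher and 6 (15.4%) lower. Of all gene and cluster pairs there, 22.0% were higher and 33.4% lower. In cluster 4 each gene of the list but spred3 was called higher. dusp6, a phosphatase that acts on MAP kinase, was at 267.6 and 347.3 CPM in the flt1 mutant and 143.3 and 265.7 in the WT libraries of endothelial-like cells (log2 fold 2.75 ± 0.20). spry2 in ependymal radial glia-like cells was at 279.9 and 248.3 in the flt1 mutant and 272.3 and 267.7 in the WT libraries (2.43 ± 0.12), and the log2 folds of etv4 and spry4 in fin mesenchyme-like cells were 2.69 ± 0.18 and 2.14 ± 0.13.

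Co-receptors and binding proteins gave 69 class pairs, with 7 (10.1%) higher and 40 (58.0%) lower. Among them, fgfbp1b, whose mammalian counterpart releases ligand from the matrix, had a log2 fold of 5.75 ± 0.29 in basal epidermis-like cells, the class with most fgf24 and fgf8a. The symbol fgfbp1b is listed under both ENSDARG00000091660 and ENSDARG00000039963, and this value belongs to a single identifier, so reads may be split between copies. The genes of heparan sulphate chains and their carriers gave 292 pairs, with 75 (25.7%) higher and 93 (31.8%) lower. sulf2a, which encodes an enzyme that removes sulphate from these chains, stood highest, with a log2 fold of 6.57 ± 0.17 in ependymal radial glia-like cells. Of intracellular transduction genes, 73 of 340 pairs (21.5%) were higher and 72 (21.2%) lower.

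The genotype comparison asked whether loss of flt1 moved members in the whole trunk, where fewer cells of a type and less RNA per cell cannot be told apart. Of 32 members tested, 0 were called by edgeR, against 0.466% of all genes, 5 had an unadjusted p under 0.05, and DESeq2 called 2. Among all genes 15.7% had such a p, so that 5 of 32 is no more than the background. The median log2 fold of the members was -0.119, against -0.0129 for all genes. fgf6a was at 0.555 and 0.503 CPM in the flt1 mutant and 1.62 and 1.88 in the WT libraries. Its log2 fold was -1.69 ± 0.30 (edgeR adjusted p = 0.1). It was called with library totals (-1.72), with DESeq2 (-1.69) and without WT replicate 1 (-1.89). fgf8a was at 1.67 and 1.86 in the flt1 mutant and 4.00 and 2.88 in the WT libraries (-0.90 ± 0.19, edgeR adjusted p = 0.128). The genotypes did not overlap for either gene. The share of all genes without overlap was not counted, so statements on overlap between genotypes are descriptions. The remaining members with an unadjusted p under 0.05 were the receptors fgfr4 (-0.33 ± 0.10) and fgfr1b (-0.40 ± 0.13) and the rare fgfr1bl (ENSDARG00000075027).

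No UMI of fgfr1bl (ENSDARG00000075027) was found in the flt1 mutant libraries, against 10 and 20 in the WT libraries, and the exact 95% Poisson interval of the ratio of WT over flt1 mutant level starts at 6.64 (counting error only). The gene passed the count filter through the WT libraries alone, so neither the edgeR result (adjusted p = 0.105) nor the calls by DESeq2 and with library totals support the difference. In 24 basal epidermis-like cells lay 24 of its 30 UMIs. The other identifier of the same symbol, fgfr1bl (ENSDARG00000104015), had 116 and 123 UMIs in the flt1 mutant and 149 and 150 in the WT libraries, and its log2 fold was -0.14 ± 0.23. How the counting divided reads between the 2 identifiers was not tested.

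Within classes, 92 pairs of a member and a class were tested for genotype and 0 were called by edgeR, against 1.48% of all gene and class pairs. There were 13 pairs with an unadjusted p under 0.05, a share near the 12.9% of all gene and class pairs, and DESeq2 called 0. fgf6a in fast muscle-like cells was at 1.66 and 1.57 CPM in the flt1 mutant and 4.83 and 3.83 in the WT libraries (log2 fold -1.45 ± 0.32, edgeR adjusted p = 0.0732). fgf8a in basal epidermis-like cells, given above, had a value of -1.09 ± 0.30 (edgeR adjusted p = 0.15). It was called without WT replicate 2 (-1.47). With the replicate number as a block, which nothing in the labels supports as a pairing, it was called as well (-1.11). fgf1a in fast muscle-like cells was at 2.38 and 3.85 in the flt1 mutant and 5.25 and 6.78 in the WT libraries (-1.12 ± 0.30, edgeR adjusted p = 0.114). The flt1 mutant libraries lay below the WT libraries for these 3 ligands. In the same muscle-like cells the other ligands were fgf4 (-0.67 ± 0.26), fgf1b (-0.40 ± 0.27) and fgf20b (-0.71 ± 0.45), none of them called, although fgf4 was called without WT replicate 2 (-1.04). Without WT replicate 1, fgf6a (-1.32), fgf1a (-1.25) and, in basal epidermis-like cells, fgf24 (0.86) and fgf10a (2.46) were called, and fgf6a was called without WT replicate 2 (-1.64).

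In smooth muscle-like cells fgfr3 was at the levels given above, with a log2 fold of flt1 mutant over WT of -0.57 ± 0.13 (edgeR adjusted p = 0.112). It was called without WT replicate 1 (-0.73) and in the fit with replicate number as a block (-0.56). fgf13a was at 7.99 and 6.65 CPM in the flt1 mutant and 17.7 and 16.3 in the WT libraries of this class (-1.28 ± 0.28, edgeR adjusted p = 0.103). The genotypes did not overlap for either. The corresponding log2 folds of fgfr2 and fgf10a, the other abundant members in these cells, were 0.01 ± 0.15 and 0.04 ± 0.15.

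Of the 92 pairs, fgf4 in endothelial-like cells had the highest log2 fold between genotypes. It had 11 and 27 UMIs in the flt1 mutant and 0 and 3 in the WT libraries, or 57.7 and 71.0 CPM in the flt1 mutant and 0 and 6.38 in the WT libraries. The log2 fold was 3.63 ± 0.69 (edgeR adjusted p = 0.14). The genotypes did not overlap, but the 41 UMIs came from 12 of 158 cells, with up to 10 in 1 cell. It was called without flt1 mutant replicate 1 (3.79), without WT replicate 1 (3.25) and in the fit with replicate number as a block (3.72). It passed the count filter through the flt1 mutant libraries alone, so these calls do not support the difference. fgf18a and fgf10b did not pass the filter within this class. Fin mesenchyme-like cells, which also had fgf4, were at the levels given above, with overlapping genotypes.

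**Figure D5:**
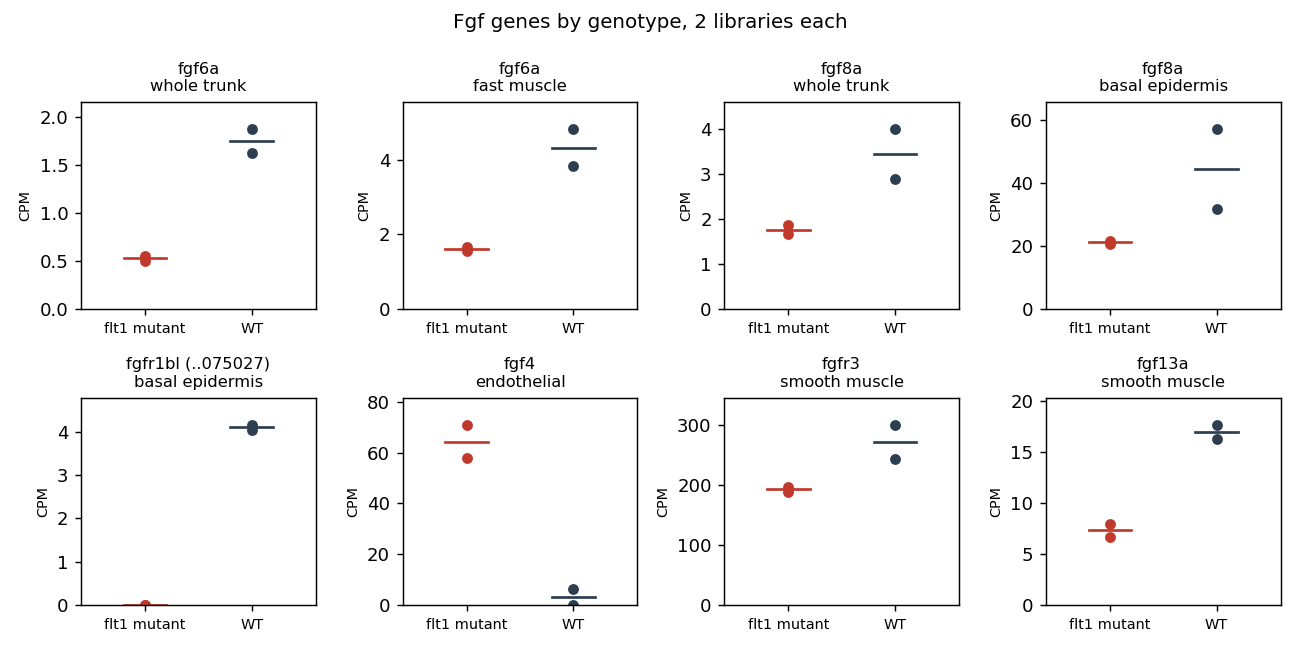
Levels in CPM (vertical axes, each starting at 0) of 6 members in the whole trunk or 1 class, for 2 flt1 mutant libraries (red, left) and 2 WT libraries (dark blue, right). Points are libraries and bars the mean. The 8 panels were picked by hand from the comparisons in the text, so their lack of overlap between genotypes is a description and not support. With the count filter, TMM scaling, all 4 libraries and no replicate block, edgeR called none of these differences. Alternative fits called some of them, as given in the text.

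Within the 3 unnamed clusters, 28 pairs were tested for genotype by edgeR and 0 were called, against 0.161% of all gene and cluster pairs, with 4 at an unadjusted p under 0.05, against 9.97% of all pairs. These were fgfr4 (-0.73 ± 0.17) and fgfr3 (0.45 ± 0.17) in cluster 5 and fgfr3 (-0.61 ± 0.22) and fgfr1b (-0.55 ± 0.21) in cluster 4, so that the sign for fgfr3 was not shared. Of the 4 pathway lists, 0 of 13 feedback inhibitors and targets, 0 of 6 co-receptors and binding proteins, 0 of 20 genes of heparan sulphate and 0 of 23 transduction genes were called by edgeR in the whole trunk, with 2, 3, 1 and 4 genes at an unadjusted p under 0.05, beside 15.7% of all genes. kl, which encodes the Klotho co-receptor of endocrine ligands, was among them, at 0.689 and 0.729 CPM in the flt1 mutant and 0.224 and 0.243 in the WT libraries. With WT levels at the limit of the count filter, kl passed it through the flt1 mutant libraries, so its p does not support the difference. Within classes, of these 4 lists only hs6st1b, a sulphotransferase gene, was called, in erythroid-like cells, where it was at 0 in both flt1 mutant libraries and at 3.45 and 1.53 in the WT libraries. It passed the filter through the WT libraries alone, so the call does not support the difference.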

How the data were processed

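The deposited matrices hold whole-number UMI counts per gene and barcode, not normalized, and came from Cell Ranger 6.1.1 by their headers, with GRCz11 as the genome build. The authors had limited them to barcodes called as cells (32486 in all). Cells were retained with over 200 and under 4000 genes and under 5% mitochondrial UMIs, which left 19611. Clustering used Seurat 5.3.0 in R 4.3.3 (log-normalised counts, 2000 variable genes without the members, integration with 30 dimensions, 50 components, resolution 0.3, and 0.7 for neural cells). The study's SCTransform step was not run, and no doublet caller was used. A cluster took a name where at least 3 markers of a class were higher in it, with at least 2 among its first 50 genes and no other class ahead among the first 10. UMI sums per library were tested with edgeR 4.0.16 (filterByExpr, TMM, glmQLFTest), and changes were called at an adjusted p under 0.05. DESeq2 1.42.0 was an alternative. The tests were checked on simulated counts with a fixed spread between libraries and changes in well-counted genes only. That check does not cover the rarer ligands. Other alternatives were library totals, no count filter, each library left out, over 500 genes per cell, cells above the 95th percentile of UMIs left out, the replicate number as a block, no library block, member genes kept in clustering, no integration, and unnamed cells among the others. Leaving out cells under 1000 UMIs and testing unnamed clusters were chosen after seeing the data. Members with at least 100 UMIs were described by class and genotype, and rarer ones by UMI total and leading class. Members and lists were chosen with earlier results of these data known. Symbols were matched to a RefSeq table of GRCz12tu for neighbouring genes only (40 of 42 matched), and no coordinates or sequences were used here.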

Additional observations from a re-analysis of the deposited data

How the results depend on the processing

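The genotype comparison is limited by 2 libraries per genotype and by few UMIs for most ligands, so a member not called may still differ. In the whole trunk edgeR called 0 members, library totals 2, DESeq2 2 and leaving out 1 library 0 to 1, and the replicate block 0. Within classes the main count was 0 pairs, with 7 without a count filter, 0 to 6 with 1 library left out and 3 with the replicate block. The labels link no libraries, so the replicate numbers were not taken as a pairing. Deviations of the replicate 1 libraries from their genotype means correlated at -0.179 over 18036 genes. With 2 libraries per genotype this value cannot decide whether same-numbered libraries were prepared together. The class and neural subset counts stayed within 1.5 times under each alternative run. Several single calls changed direction. With library totals, the log2 fold of fgfr1op2 was 0.46 in dividing, 0.41 in ependymal radial glia-like, 0.38 in neuron-like and 0.030 in smooth muscle-like cells, that of fgfr1op -0.69 and of fgf1a -0.88 in erythroid-like cells, that of fgfrl1a 0.29 in ependymal radial glia-like and -0.43 in fast muscle-like cells, and that of fgfr3 0.55 in dividing and 0.0053 in secretory or lateral line-like cells. Without integration fgfr1a in dividing cells was -0.19. With member genes kept in clustering, fgfr3 was 0.12 and fgfr1b 1.20 in neuron-like cells, and without the cells above the 95th percentile of UMIs, fgf1b in periderm-like cells was 0.31. The cause of these was not tested. Another 240 class calls and 40 neural calls over all alternatives were lost in the same direction.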
